A study of Mus musculus with 3 samples.

Results

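The extracellular face of the Wnt pathway was described here through 41 mouse genes: 19 Wnt ligands, 14 receptors and co-receptors, and 8 antagonists. Its members are the 330 accessible regions, of 95842 in the whole ATAC-seq table, whose midpoint had one of these genes as the nearest protein-coding gene body, inside it or within 50 kb. The ligands held 122 regions, the receptors 139 and the antagonists 69, and 40 of the 41 genes had at least 1 region. No region was assigned to Dkk1, which makes a secreted inhibitor of the Lrp5 and Lrp6 co-receptors. Of the member regions, 184 had their midpoint inside the gene body and 146 outside it, and their widths ran from 205 to 3030 bp with a median of 655 bp. The farthest region kept was one of Fzd10 at 49013 bp, with 12, 2 and 39 counts in the 3 libraries. The nearest one left out lay 50387 bp from Ror1, with 141, 60 and 145 counts.

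The cells came from mouse skin squamous cell carcinomas, tumours of the keratinocyte lineage raised with DMBA, a mutagen, and TPA, a tumour promoter. ATAC-seq reads where the Tn5 transposase can insert into open chromatin. Each of the 3 groups was 1 library of sorted tumour cells from mice of mixed background, and 100000 cells were used per library. The group called control Epcam+ was Epcam-positive cells of genotype K14Cre;RYFP. The group called Fat1 cKO Epcam+ was Epcam-positive cells of genotype K14Cre;Fat1fl/fl,RYFP, and the group called Fat1 cKO Epcam- was Epcam-negative cells of the same genotype with the same tumour name in its label. The 2 last groups are written cKO Epcam+ and cKO Epcam-, and appear in the figures with Fat1 in front. All 3 groups share DMBA/TPA, K14Cre and RYFP, a Cre-dependent yellow fluorescent reporter. K14Cre is driven by the keratin 14 promoter, so Fat1, a protocadherin gene, is removed only where that promoter is or was active, and other cells of the animal keep it. Epcam is an epithelial surface protein used in the sort. The labels give neither the animals' age nor how many animals stand behind a library.

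Wnt proteins are secreted lipid-modified ligands that bind Frizzled receptors. Together with the co-receptors Lrp5 and Lrp6 they stabilise beta-catenin, which then acts with TCF and LEF factors on target genes, while ligands such as Wnt5a can act through Ror1 and Ror2 without beta-catenin. Dickkopf proteins block the co-receptors, secreted Frizzled-related proteins bind the ligands, and Axin2 is an intracellular brake that the pathway itself induces. In skin the pathway is known for hair follicle formation and for the upkeep of follicle stem cells.

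Promoter sequences are shown for the 5 members with the highest or lowest promoter ratios described further on, a choice made after their values were seen. Each is a RefSeq window of 300 bases, from 250 before to 50 after an annotated start, on GRCm38, read on the gene's own strand. The Wnt3 window is chr11:103773925-103774224 (plus strand), Wnt9b chr11:103749772-103750071 (minus), Wnt3a chr11:59290702-59291001 (minus), Fzd10 chr5:128600856-128601155 (plus) and Dkk2 chr3:132085042-132085341 (plus). Capitals mark CACCTG on either strand, the E-box bound by Zeb and Snail factors.
Wnt3: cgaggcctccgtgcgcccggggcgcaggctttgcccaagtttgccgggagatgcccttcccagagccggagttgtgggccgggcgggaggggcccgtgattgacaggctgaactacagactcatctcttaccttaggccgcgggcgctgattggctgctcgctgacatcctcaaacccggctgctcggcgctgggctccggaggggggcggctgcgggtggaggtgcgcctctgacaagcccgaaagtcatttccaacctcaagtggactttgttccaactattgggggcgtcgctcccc
Wnt9b: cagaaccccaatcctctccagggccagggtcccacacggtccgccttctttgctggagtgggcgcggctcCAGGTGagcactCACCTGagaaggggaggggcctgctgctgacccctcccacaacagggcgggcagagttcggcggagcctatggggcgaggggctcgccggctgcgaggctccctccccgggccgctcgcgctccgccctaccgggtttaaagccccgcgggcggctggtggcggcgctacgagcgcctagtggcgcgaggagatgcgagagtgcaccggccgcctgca
Wnt3a: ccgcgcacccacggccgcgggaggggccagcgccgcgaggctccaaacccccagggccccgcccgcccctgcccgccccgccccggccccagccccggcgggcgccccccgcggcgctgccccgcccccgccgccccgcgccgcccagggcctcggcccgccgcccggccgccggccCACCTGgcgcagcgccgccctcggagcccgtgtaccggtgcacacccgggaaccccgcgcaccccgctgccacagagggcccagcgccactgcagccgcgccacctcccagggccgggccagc
Fzd10: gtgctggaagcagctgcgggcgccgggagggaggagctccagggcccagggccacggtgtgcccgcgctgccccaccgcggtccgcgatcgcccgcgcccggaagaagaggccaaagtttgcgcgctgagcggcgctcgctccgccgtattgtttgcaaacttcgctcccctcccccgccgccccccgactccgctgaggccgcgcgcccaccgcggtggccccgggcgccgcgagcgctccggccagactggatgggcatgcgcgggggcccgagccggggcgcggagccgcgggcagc
Dkk2: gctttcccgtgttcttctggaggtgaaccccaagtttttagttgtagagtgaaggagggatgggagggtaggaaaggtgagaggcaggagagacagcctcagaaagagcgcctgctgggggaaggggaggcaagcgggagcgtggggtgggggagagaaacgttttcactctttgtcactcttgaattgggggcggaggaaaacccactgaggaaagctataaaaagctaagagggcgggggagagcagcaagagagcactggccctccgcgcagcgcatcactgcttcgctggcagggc

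GC content was 65.7% in the Wnt3 window, 71.7% in Wnt9b, 86.3% in Wnt3a, 77.7% in Fzd10 and 57.7% in Dkk2, against a median of 52.7% over 32851 RefSeq windows of the same length. The Dkk2 window, the one of the 5 whose region was lower in both libraries labelled cKO, had the lowest GC content and the lowest CpG observed over expected, 0.499. That of Fzd10 was 0.995, that of Wnt3a 0.863, and the median of all windows 0.384. Between cKO Epcam- and control Epcam+, Dkk2 was the only member whose promoter region was at least 2-fold lower. Wnt2 and Wnt11 had such a promoter region in another comparison, and their windows had higher values than that of Dkk2. The region over the Wnt2 window (65.7% GC, 0.837) was at least 2-fold lower under cKO Epcam+ than under control Epcam+. The region over the upstream Wnt11 window (71.3% GC, 1.18) was at least 2-fold lower under cKO Epcam- than under cKO Epcam+. CACCTG occurred 2 times in the Wnt9b window and 1 time in that of Wnt3a. It was present in 9 of the 31 windows found for 28 members (29.0%) and in 20.2% of all windows. The TCF/LEF core CTTTGA, searched on both strands, was in 5 of 31 member windows (16.1%) and 16.0% of all, and the AP-1 motif TGANTCA in 2 of 31 (6.45%) and 7.81% of all. None of the 5 printed windows held either of the last 2 motifs. A match is a run of letters and does not show binding.

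Nuclear counts ranged from 3812880 to 5485317 per library after the 2 mitochondrial regions, which took 39.1% to 42.6% of all counts, were set aside. The counts of Fat1, the targeted gene, summed to 158, 191 and 249 CPM (a library's counts divided by its TMM effective size, times 1000000) in the libraries labelled control Epcam+, cKO Epcam+ and cKO Epcam-. The sources used here do not say which exons are removed, so this sum does not check the deletion. Values for the 3 libraries follow this order throughout, called label order.

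The authors' peak calls and the counts of 2 libraries disagreed. Peaks unique to the label control Epcam+ numbered 64 among the member regions, and 0 of these had their highest CPM in the count column of that name, while 60 had it under cKO Epcam-. Peaks unique to the label cKO Epcam- numbered 39, and 34 of these were highest under control Epcam+. Peaks unique to the label cKO Epcam+ numbered 19, and 18 were highest in their own column. The same held over the whole table, where 16893 of 18422 peaks unique to the label control Epcam+ had their highest CPM under cKO Epcam-. Epcam itself had 67.7, 224 and 132 CPM in label order, so the Epcam-negative label did not carry the lowest value. Which of the column names is right was not settled, so each direction given is a direction between column labels.

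**Figure D1:**
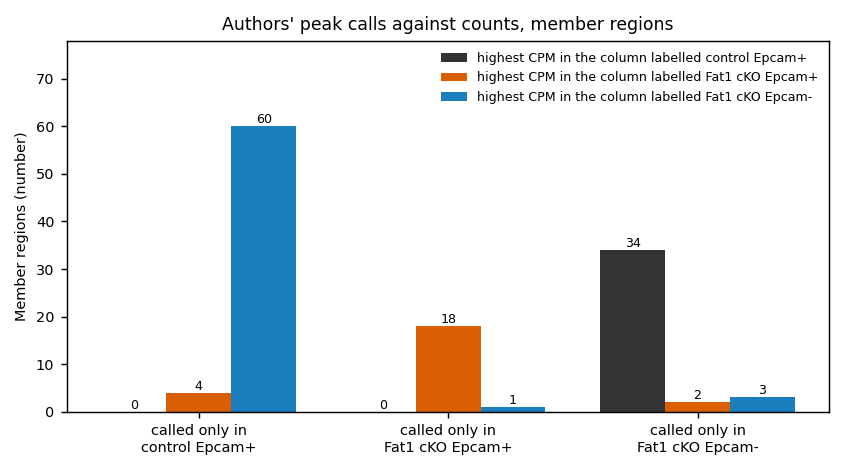
Number of member regions called as a peak by the authors in 1 library only (x axis, by label), split by the count column that held the highest CPM (bar colour). The 60 and 34 regions in the outer groups of bars had their highest CPM in the column with the other label of the pair.

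Ratios were taken for 3 pairs that share libraries. The genotype pair sets the library labelled cKO Epcam+ over the one labelled control Epcam+. The Epcam pair sets the one labelled cKO Epcam- over the one labelled cKO Epcam+, and the outer pair sets it over the one labelled control Epcam+. If the names of the 2 doubtful count columns were exchanged, the genotype pair would be cKO Epcam+ over cKO Epcam-, the Epcam pair control Epcam+ over cKO Epcam+, and the outer pair would change sign. No pair is free of both doubtful columns. As labelled, the libraries of the genotype and outer pairs carry different tumour names, so genotype and tumour cannot be told apart in these pairs. With 1 library per group there is no replicate check and no test between conditions. Values in parentheses after a log2 ratio are 95% intervals for counting error only. A gene was called higher or lower where its ratio reached 2-fold and 1 library of the pair held 20 counts or more, and 39 of the 41 members had enough counts.

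Fewest member genes were called in the genotype pair and most in the outer pair. In the genotype pair 1 of 39 members was called higher and 2 lower, where 7.21% of 15286 genes were called higher and 4.31% lower. In the Epcam pair 6 were higher and 3 lower, against 9.48% and 6.31% of 15731 genes. In the outer pair 9 were higher (23.1%) and 3 lower (7.69%), against 12.5% and 6.15% of 15812 genes. The median log2 ratio of the members was 0.22, 0.15 and 0.30 in the 3 pairs, and that of all genes 0.05, 0.00 and 0.07. Of the 40 members with a region, 23 had their highest CPM in the library labelled cKO Epcam-, 11 under cKO Epcam+ and 6 in that labelled control Epcam+. Those 6 were Wnt2, Wnt10b, Fzd4, Fzd7, Dkk2 and Sfrp4. The highest library was not counted over all genes. In the outer pair 27 of 39 members lay above 0, and 8594 of 15812 genes did. In bulk sorted cells, a smaller share of open cells and less open chromatin per cell cannot be told apart.

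Single regions were put to the same size rule. Of 201 member regions with enough counts in the genotype pair, 48 were called higher (23.9%) and 28 lower (13.9%), against 18.8% and 16.3% of all regions. In the Epcam pair 59 of 224 were higher (26.3%) and 51 lower (22.8%), against 25.0% and 17.5%. In the outer pair 87 of 242 were higher (36.0%) and 47 lower (19.4%), against 28.4% and 19.3%.

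**Figure D2:**
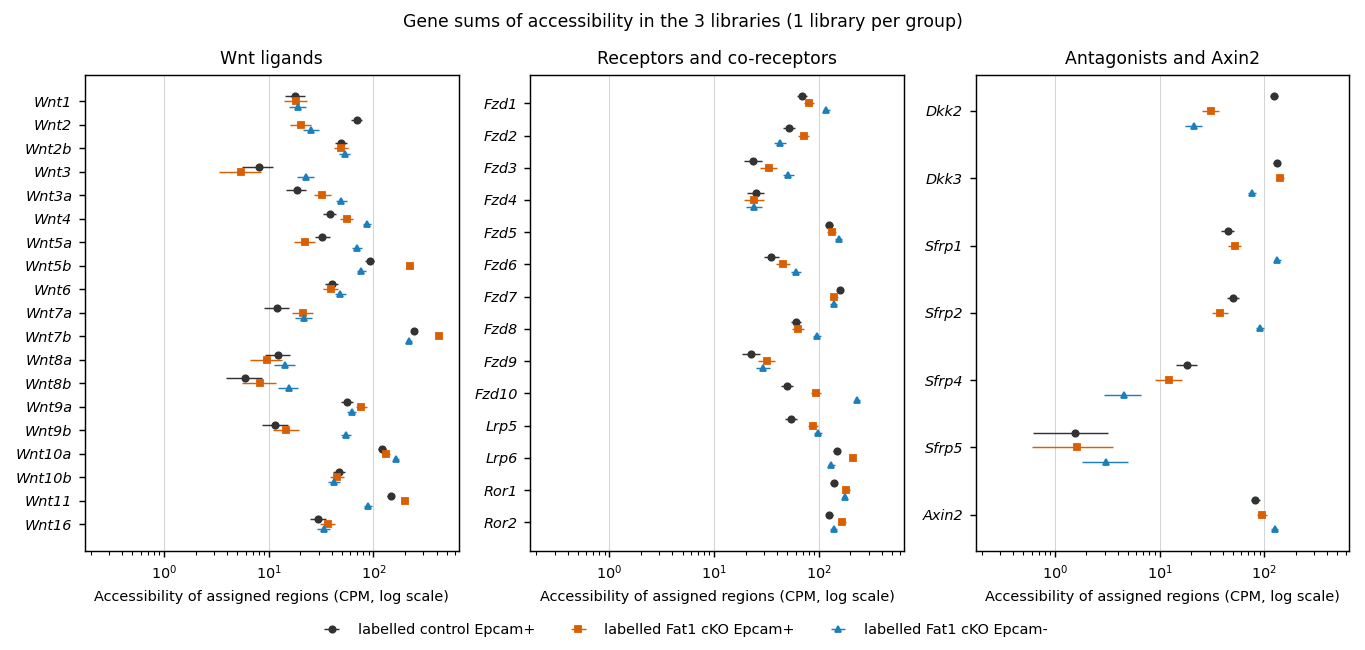
Summed accessibility (CPM, log axis) of each member with a region in the 3 libraries, with exact 95% Poisson intervals for counting error, in panels for ligands, receptors and antagonists. Between the labels control Epcam+ and cKO Epcam-, Dkk2 runs from 124 to 21.3 CPM and Fzd10 from 49.7 to 233 CPM.

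Among the 19 ligand genes, 9 passed the size rule in at least 1 pair. In the outer pair 6 were called higher (31.6%, against 12.5% of all genes), namely Wnt3, Wnt3a, Wnt4, Wnt5a, Wnt8b and Wnt9b, and Wnt2 was lower (5.26%, against 6.15%). In the Epcam pair Wnt3, Wnt5a and Wnt9b were higher (15.8%, against 9.48%), and Wnt5b and Wnt11 lower (2 of 19, against 6.31%). In the genotype pair Wnt5b was higher and Wnt2 lower (5.26% each, against 7.21% and 4.31%). The summed ligand CPM was 1049, 1433 and 1166 in label order.

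Wnt9b, a ligand known from kidney and facial development, had the largest outer-pair ratio of the ligands. Its 5 regions on chromosome 11 (gene body 103727362 to 103775272, mm10) summed to 52, 54 and 303 counts in label order, or 11.5, 14.8 and 55.1 CPM. The library labelled cKO Epcam- stood above the other two, which lay close together. The log2 ratio was 0.34 (-0.22 to 0.93) in the genotype pair, 1.87 (1.48 to 2.35) in the Epcam pair and 2.21 (1.83 to 2.71) in the outer pair. The region with most counts, 103749481 to 103750325, lies inside the gene over the window printed above and had 18, 20 and 140 counts. The region with the largest outer-pair ratio, 103772255 to 103772910, had 2, 12 and 37 counts. All 4 of its regions with enough counts were at least 2-fold higher in the outer pair.

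Wnt3, a beta-catenin pathway ligand, lies next to Wnt9b on chromosome 11 (103774175 to 103818021) on the opposite strand, and the 2 gene bodies overlap at the start of Wnt3. Its 3 assigned regions, all inside the gene, had 36, 20 and 124 counts in label order, or 7.99, 5.47 and 22.5 CPM. The library labelled cKO Epcam- was again high and the other two low. The Epcam pair gave 1.96 (1.36 to 2.80) and the outer pair 1.45 (0.95 to 2.08). The region with both the most counts and the largest ratios, 103809920 to 103810520, had 12, 8 and 55 counts. The region over the Wnt3 promoter window, 103773614 to 103774312, had 13, 5 and 87 counts, but its midpoint lies in the Wnt9b body, so it was counted for Wnt9b. The ratios of these neighbours are therefore partly set by which gene that region is given to, and it alone gave 2.29 (1.61 to 3.42) in the outer pair.

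Wnt3a, the ligand most used to switch on beta-catenin in culture, had 83, 119 and 272 counts over 6 regions (chromosome 11, 59248036 to 59290751), or 18.4, 32.5 and 49.5 CPM. These 3 values stood in label order, each above the one before. The outer-pair log2 ratio was 1.40 (1.07 to 1.80), and the region over its promoter, 59289654 to 59291316, had 19, 32 and 137 counts with a ratio of 2.45 (1.87 to 3.34). At least 1 other region ran the opposite way: of 6 regions with enough counts, 4 were called higher and 1 lower. Wnt4 (chromosome 4, 137277635 to 137299501), known from kidney and female reproductive tract development, had 38.2, 55.5 and 87.1 CPM in label order and an outer-pair ratio of 1.18 (0.94 to 1.45). That ratio was under 2-fold with the median over regions, 0.88, and with each chromosome's median set to 0, 0.86. Its region inside the gene from 137282673 to 137283645 had 17, 37 and 160 counts, and that over the promoter 55, 73 and 199. Both were highest in the library labelled cKO Epcam-.

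Wnt5a, the ligand most often tied to Ror receptors, had 147, 81 and 384 counts over 9 regions (chromosome 14, 28504543 to 28527448), or 32.6, 22.1 and 69.8 CPM. The lowest value was in the library labelled cKO Epcam+ and the highest in that labelled cKO Epcam-. The Epcam pair gave 1.64 (1.31 to 2.02), with 7 of 7 regions called higher, and the outer pair 1.09 (0.82 to 1.38). The outer-pair call did not hold with regions within 1 kb of a gene end, which gave 0.61. The region at the gene's lower-coordinate end, 28504398 to 28505973, had 54, 29 and 102 counts, and one 16929 bp from the body, 28544010 to 28544745, had 4, 5 and 55.

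Wnt5b, a close relative of Wnt5a, moved in another order. Over 17 regions (chromosome 6, 119432531 to 119544824) it had 415, 819 and 420 counts, or 92.1, 224 and 76.4 CPM. The library labelled cKO Epcam+ stood above the other two. The genotype pair gave 1.28 (1.11 to 1.46), the Epcam pair -1.55 (-1.73 to -1.38), and the outer pair -0.27 (-0.47 to -0.07). Of its regions with enough counts, 7 of 13 were called higher in the genotype pair and 8 of 12 lower in the Epcam pair. The region with most counts, 119535326 to 119536781, had 37, 148 and 93 counts, and that from 119513917 to 119514688 had 8, 61 and 6. The difference was smaller at the promoter: the region over the 5' window, which the rule gave to the overlapping model Gm52875, had 81, 98 and 144 counts and a genotype-pair ratio of 0.57 (0.14 to 1.02).

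Wnt7b, an epithelial ligand, was also highest in the library labelled cKO Epcam+, with 244, 425 and 220 CPM over 21 regions. Its ratios, 0.80 (0.69 to 0.92) in the genotype pair and -0.95 (-1.06 to -0.84) in the Epcam pair, stayed under 2-fold. Wnt11, a ligand of the beta-catenin-independent branch, had 146, 198 and 89.3 CPM over 9 regions (chromosome 7, 98835084 to 98854747) and was lower in the Epcam pair at -1.15 (-1.32 to -0.98). Its region with most counts, 98815027 to 98817238, had 220, 305 and 176 counts, and that with the largest ratio, 98860851 to 98861399, had 19, 51 and 10. With each chromosome's median ratio set to 0 the Wnt11 value was -0.62, under 2-fold.

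Wnt2, a ligand known from lung and placental development, was lower in both libraries labelled cKO. Its 6 regions (chromosome 6, 17985474 to 18032772) had 311, 74 and 140 counts, or 69.0, 20.2 and 25.5 CPM. The library labelled control Epcam+ stood above the other two. The genotype pair gave -1.75 (-2.16 to -1.40) and the outer pair -1.42 (-1.74 to -1.15). A single region 6586 bp beyond the gene body, 17978253 to 17979524, carried 198, 22 and 55 of these counts. The region over the promoter had 33, 10 and 35 counts, and its outer-pair ratio was -0.19 (-0.93 to 0.53), under 2-fold.

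Wnt8b, a ligand of the developing forebrain, was called on few counts: 27, 30 and 85, or 5.99, 8.20 and 15.5 CPM, with an outer-pair ratio of 1.31 (0.73 to 2.05). All 3 of its regions lie outside the gene body (chromosome 19, 44493472 to 44514273), 19188 to 35650 bp away. The call could therefore not be tested with regions within 10 kb, near gene ends or at the promoter. That with most counts, 44457521 to 44458124, had 12, 17 and 46, and that with the largest ratio, 44474142 to 44474426, had 6, 7 and 31. The other 9 ligands, Wnt1, Wnt2b, Wnt6, Wnt7a, Wnt8a, Wnt9a, Wnt10a, Wnt10b and Wnt16, stayed under 2-fold in all 3 pairs. Wnt10a, a skin appendage ligand, had 120, 131 and 163 CPM, and Wnt7a 54, 78 and 119 counts.

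**Figure D3:**
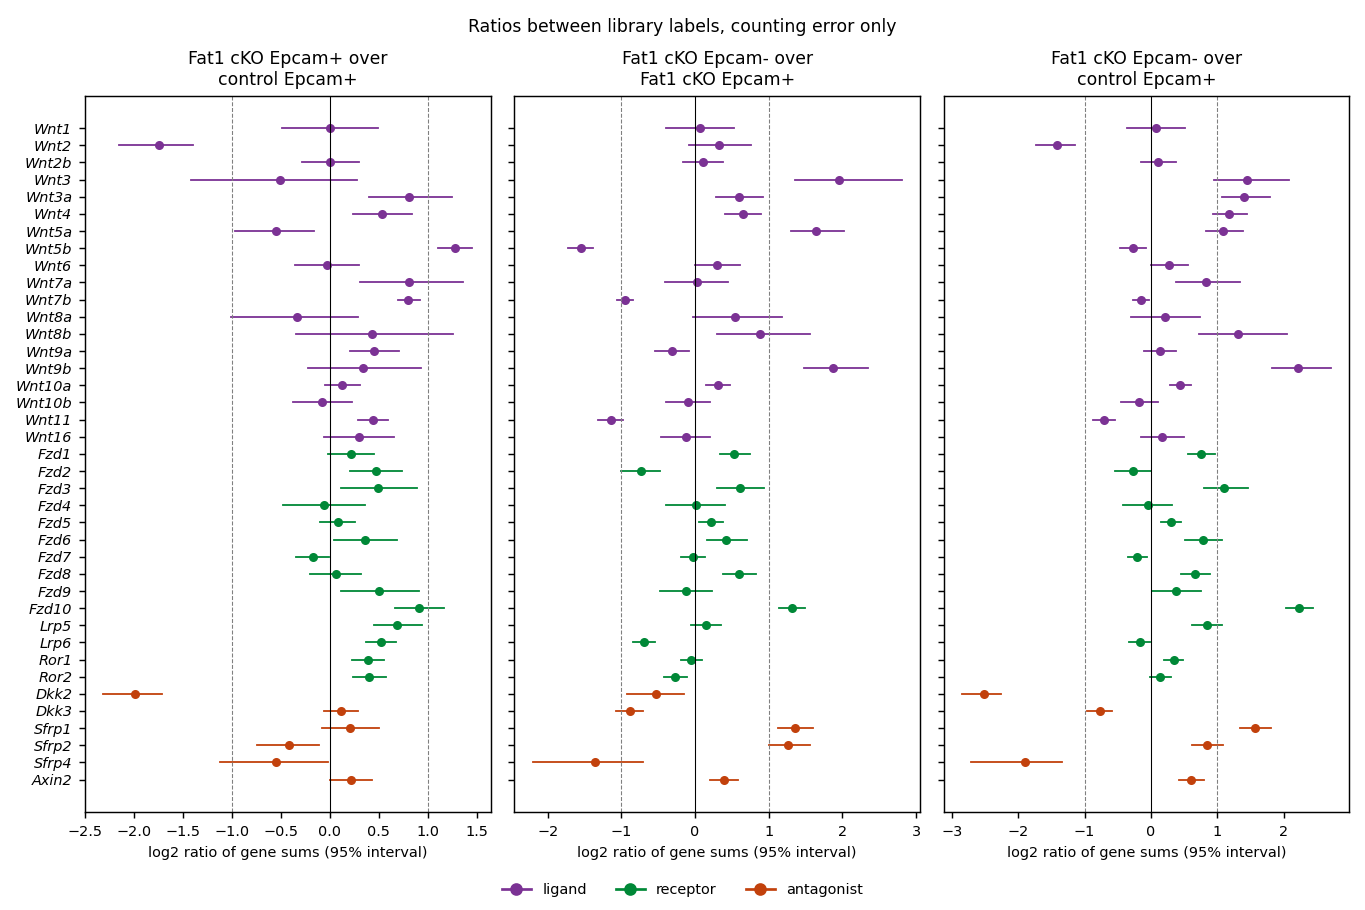
The log2 ratio of each of the 39 members with enough counts in the genotype, Epcam and outer pairs, with 95% intervals for counting error and dashed lines at 2-fold. Wnt9b (2.21), Fzd10 (2.22) and Dkk2 (-2.52) lie farthest from 0 in the outer pair.

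Among the receptor genes Fzd10 had the largest ratio in each of the 3 pairs. Of 14 receptors and co-receptors, 0 were called in either direction in the genotype pair, against 7.21% higher and 4.31% lower of all genes. In the Epcam pair 1 was higher (7.14%, against 9.48%) and in the outer pair 2 were higher (14.3%, against 12.5%), shares near those of all genes, and 0 were lower in any pair. In the genotype pair 12 of the 14 lay above 0, and 8276 of 15286 genes did. The median log2 ratio of the receptors was 0.40, where all genes had 0.05. Total-count scaling, which shifts the ratios of all genes in a pair by nearly the same amount, moved the all-gene median to -0.07. The receptor median under that scaling was not computed. The summed receptor CPM was 1088, 1366 and 1490 in label order.

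Fzd10 (chromosome 5, 128601106 to 128604093), a Frizzled receptor encoded by a short gene, had 224, 343 and 1283 counts over 12 regions, or 49.7, 93.8 and 233 CPM. Each library stood above the one before it in label order. The genotype pair gave 0.91 (0.67 to 1.17), just under 2-fold, the Epcam pair 1.31 (1.14 to 1.49) and the outer pair 2.22 (2.03 to 2.44), which is 4.66-fold. All 12 regions lie outside the gene body by midpoint, and 10 of them were called higher in the outer pair. The region over the promoter printed above, 128599954 to 128601745, had 24, 33 and 257 counts and an outer-pair ratio of 3.03 (2.53 to 3.80). Its Epcam-pair ratio, 2.32 (1.85 to 2.94), was above that of the gene sum.

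Regions on both sides of Fzd10 shared the highest library. The region 20946 bp before the gene, 128579013 to 128581308, had 60, 177 and 395 counts, so the library labelled cKO Epcam+ lay between the other two. The region 45583 bp beyond the body, 128649206 to 128650147, had 20, 13 and 193 counts and was high in 1 library only. These regions differ in order even though both were highest in the library labelled cKO Epcam-.

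**Figure D4:**
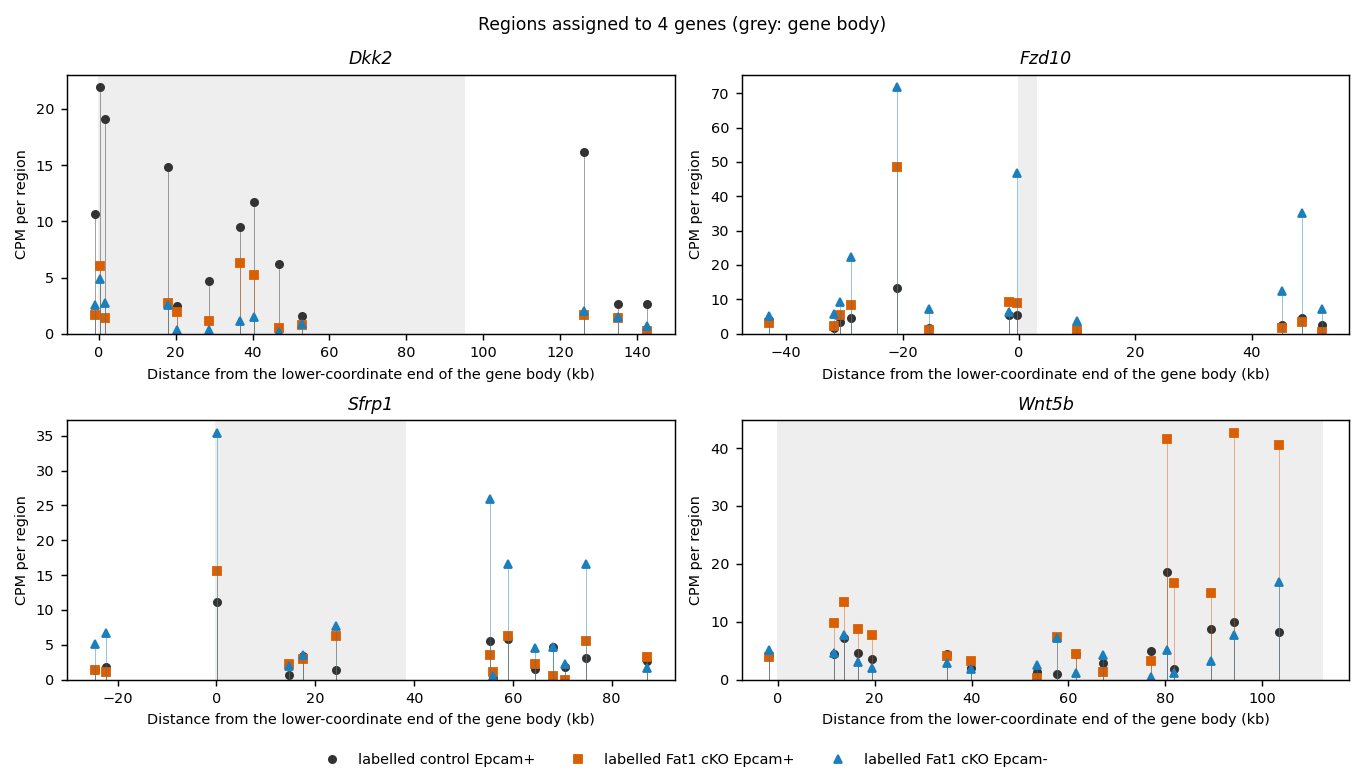
Accessibility (CPM) of each region assigned to Dkk2, Fzd10, Sfrp1 and Wnt5b against its distance from the lower-coordinate end of the gene body (kb), with the body in grey and 1 symbol per library. All 13 Dkk2 regions are highest in the library labelled control Epcam+, and the tallest Wnt5b regions in that labelled cKO Epcam+.

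Fzd3 (chromosome 14, 65192441 to 65262463), a receptor known from axon guidance, had 106, 122 and 281 counts over 2 regions, or 23.5, 33.4 and 51.1 CPM, in label order. Its outer-pair ratio was 1.11 (0.79 to 1.46) and rested on 1 region, 65261631 to 65262893, with 100, 115 and 259 counts. Its other region, 65172142 to 65172466, had 6, 7 and 22 counts. With each chromosome's median ratio set to 0 it was 0.75, under 2-fold. The gene sums of the other Frizzled genes stayed under 2-fold in all 3 pairs. Fzd7 had 159, 141 and 138 CPM, highest in the library labelled control Epcam+. Fzd6 had 35.3, 45.4 and 61.1 CPM and Fzd1 69.4, 80.9 and 117 CPM, both highest in the library labelled cKO Epcam-. Single Fzd6 regions went both ways. That from 39005817 to 39007009, at the gene's lower-coordinate end, had 41, 109 and 191 counts. Its ratios were 1.67 in the genotype pair and 1.88 in the outer pair. That from 39043302 to 39043771 had 40, 8 and 11 counts, with -1.83 and -1.93. With only the regions within 1 kb of a gene end, Fzd6 was higher by 2-fold in both of these pairs. The region over the Fzd4 promoter had 395, 477 and 497 counts, or 87.6, 130 and 90.4 CPM. Its midpoint lies in the neighbouring gene Tmem135, so it is not part of the Fzd4 sum of 25.1, 24.1 and 24.2 CPM.

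The co-receptors Lrp5 and Lrp6 differed in order. Lrp5 had 54.3, 88.0 and 97.5 CPM over 11 regions, lowest in the library labelled control Epcam+, with a genotype-pair ratio of 0.69 (0.45 to 0.94). Lrp6 had 148, 212 and 131 CPM over 19 regions, highest in the library labelled cKO Epcam+. The receptor tyrosine kinase genes Ror1 and Ror2, which bind Wnt5a, had 139, 182 and 176 CPM over 35 regions and 126, 167 and 139 CPM over 25 regions. Each was lowest in the library labelled control Epcam+, by ratios of 0.39 (0.23 to 0.55) and 0.40 (0.24 to 0.57) in the genotype pair.

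Antagonist genes went in opposite directions. Of 6 with enough counts, 0 were higher and 1 lower in the genotype pair, where 7.21% and 4.31% of all genes were. In the Epcam pair 2 were higher and 1 lower, against 9.48% and 6.31%, and in the outer pair 1 was higher and 2 lower, against 12.5% and 6.15%. Their summed CPM was 452, 371 and 455 in label order, so the sum hid the opposite movements of Dkk2 and Sfrp1. Of 42 single antagonist regions in the genotype pair, 15 were called lower (35.7%, against 16.3% of all regions) and 6 higher (14.3%, against 18.8%). The Epcam pair had 13 of 37 higher (35.1%, against 25.0%) and 8 lower (21.6%, against 17.5%). In the outer pair 22 of 48 were lower (45.8%, against 19.3%), most of them in Dkk2 and Dkk3, and 17 higher (35.4%, against 28.4%).

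Dkk2, whose protein binds Lrp5 and Lrp6, showed the largest difference of all members. Its 13 regions (chromosome 3, 132085266 to 132180304) had 560, 113 and 117 counts, or 124, 30.9 and 21.3 CPM. The library labelled control Epcam+ stood far above the other two. The genotype pair gave -1.99 (-2.31 to -1.71), 3.98-fold lower, and the outer pair -2.52 (-2.85 to -2.26), 5.74-fold lower. The difference ran along the gene: 8 of 9 regions with enough counts were called lower in the genotype pair and 9 of 9 in the outer pair. The promoter region, 132084951 to 132086348, had 99, 22 and 27 counts, the next one, 132086635 to 132087460, had 86, 5 and 15, and one in the body, 132131892 to 132132538, had 28, 2 and 1. Fibroblast and pericyte markers summed to 499, 341 and 193 CPM, also highest in the library labelled control Epcam+, and their part in the Dkk2, Wnt2 and Sfrp4 values was not tested.

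Dkk3, a Dickkopf relative whose role in Wnt signalling is less settled, stayed under 2-fold with 131, 141 and 76.4 CPM over 16 regions. It was lowest in the library labelled cKO Epcam-, at -0.88 (-1.08 to -0.70) in the Epcam pair and -0.77 (-0.96 to -0.59) in the outer pair. Its single regions differed more than the sum: 10 of 12 were called lower and 2 higher in the outer pair.

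The secreted Frizzled-related genes did not move together. Sfrp1 (chromosome 8, 23411383 to 23449632) had 202, 190 and 732 counts over 14 regions, or 44.8, 52.0 and 133 CPM. The library labelled cKO Epcam- stood above the other two, with ratios of 1.35 (1.13 to 1.60) in the Epcam pair and 1.56 (1.34 to 1.80) in the outer pair, where 8 of 9 regions were called higher. The region at the gene's lower-coordinate end, 23410833 to 23412356, had 50, 57 and 195 counts, and one 17027 bp beyond the body, 23466251 to 23467067, had 25, 13 and 143. The largest outer-pair ratio was in the region 23485796 to 23486745, with 14, 20 and 91 counts. With regions within 10 kb only, the Epcam-pair value was 0.83, under 2-fold.

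Sfrp2 (chromosome 3, 83765750 to 83774314) had 228, 138 and 502 counts over 12 regions, or 50.6, 37.7 and 91.3 CPM. It was lowest in the library labelled cKO Epcam+ and highest in that labelled cKO Epcam-, with an Epcam-pair ratio of 1.26 (1.00 to 1.56) and an outer-pair ratio of 0.85 (0.62 to 1.08). One region 1239 bp from the body, 83775214 to 83775893, gave 28, 7 and 109 of these counts, and with only the regions within 1 kb of a gene end the Epcam-pair ratio was 0.62. Sfrp4 (chromosome 13, 19623175 to 19632825) ran the other way with 82, 45 and 25 counts, or 18.2, 12.3 and 4.55 CPM. Its ratio was -1.90 (-2.71 to -1.34) in the outer pair and -1.35 (-2.20 to -0.70) in the Epcam pair. The region next to its lower-coordinate end had 56, 24 and 20 counts, so the Epcam-pair value there was -0.78, under 2-fold. Sfrp5 had 7, 6 and 17 counts in 1 region, too few for a ratio to be called.

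Axin2, the intracellular inhibitor that rises with beta-catenin activity, stayed under 2-fold, with 82.1, 95.2 and 125 CPM over 10 regions and an outer-pair ratio of 0.61 (0.43 to 0.80). It was highest in the library labelled cKO Epcam-. The region over its promoter had 149, 148 and 302 counts, an outer-pair ratio of 0.72 (0.44 to 1.03).

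Regions lying directly over a promoter window were compared as a set of their own. A window lay in a region for 24 members. In the genotype pair 0 of 22 with enough counts were higher and 2 lower (Wnt2 and Dkk2), against 5.03% and 3.25% of 10297 genes. In the Epcam pair 5 of 24 were higher (Wnt2, Wnt3, Wnt3a, Wnt9b and Fzd10) and Wnt11 was lower, against 7.42% and 3.85% of 10585. In the outer pair 7 of 24 were higher (29.2%), namely Wnt3, Wnt3a, Wnt4, Wnt7a, Wnt9b, Fzd10 and Sfrp2, and Dkk2 was lower, against 9.61% and 3.67% of 10610. The median promoter ratio of the members was 0.47 in the outer pair and that of all genes 0.03. The 5 promoters printed above are the Dkk2 promoter and the 4 with the highest outer-pair ratios.

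Single regions showed differences that gene sums averaged out. In the outer pair, 11 of 35 members with at least 2 regions of enough counts had regions called in both directions (31.4%). Among the 11 were Wnt7b, Lrp6, Ror1, Ror2 and Dkk3. Of all genes with at least 2 regions of enough counts, 24.1% had both directions. Ror2 had 5 regions higher and 4 lower of 18, Lrp6 3 and 3 of 15, and Ror1 6 and 2 of 17, while the sums of all 3 genes stayed under 2-fold. Members hold many regions, which raises the chance of both directions, and this was not adjusted for.

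**Figure D5:**
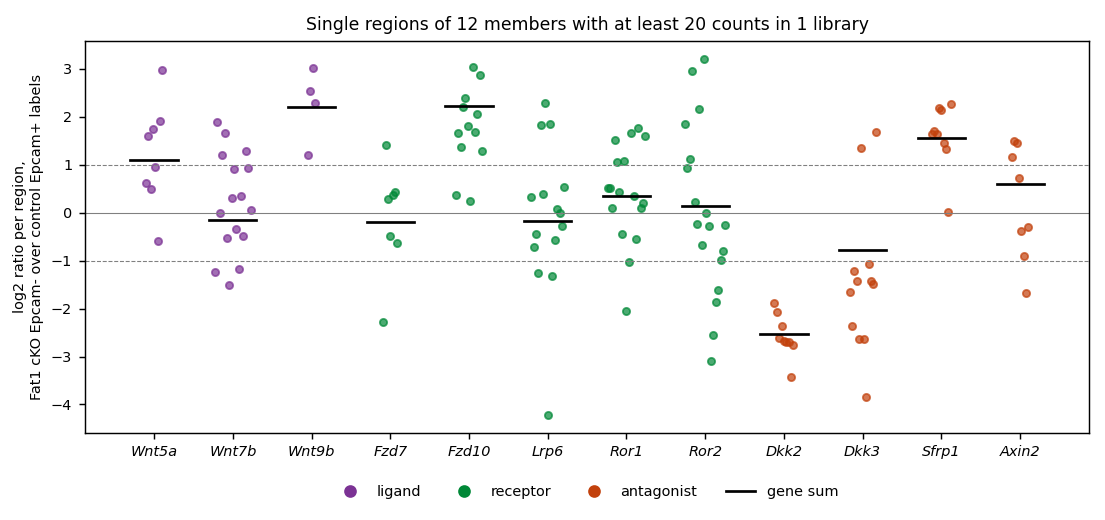
Outer-pair log2 ratio of each region with at least 20 counts in 1 library (points) and of the gene sum (bars) for 12 members, with dashed lines at 2-fold. Dkk2 regions all lie below 0 and Fzd10 regions all above, while Ror2 and Lrp6 regions lie on both sides of a sum near 0.

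A further 57 genes of the pathway were summed in the same way. In the genotype pair 4 of 56 with enough counts were higher (7.14%, against 7.21% of all genes) and 0 lower. The Epcam pair had 7 of 57 higher (12.3%, against 9.48%) and 1 lower, and in the outer pair 9 of 57 were higher (15.8%, against 12.5%) and 0 lower. The lower shares of all genes were 4.31%, 6.31% and 6.15%. The sublists below are small, and their counts are given as a description. Of the further antagonists 2 of 9 were higher in the genotype pair, and 2 of 10 in each of the other pairs, with 1 lower in the Epcam pair. Sostdc1, a secreted Wnt and BMP antagonist, had 18.4, 44.8 and 91.5 CPM, higher in all 3 pairs with 2.29 (1.98 to 2.67) in the outer pair. Among the R-spondin arm, which amplifies Wnt signals through Lgr receptors, 2 of 9 were higher in the Epcam pair and 3 in the outer pair. Rspo3 had 9.54, 9.57 and 26.5 CPM, Lgr4 140, 117 and 286, and Rnf43, a ligase that removes Frizzled receptors, 18.9, 35.5 and 57.3. The planar polarity cadherins Celsr1 and Celsr2 had 97.4, 264 and 207 CPM and 41.3, 111 and 123 CPM, lowest in the library labelled control Epcam+ and called higher in both pairs against it. Their list of 10 membrane genes had 2 higher in the genotype pair, 0 in the Epcam pair and 3 in the outer pair.

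Of the 11 genes of the cytoplasmic relay only Nkd1, an inhibitor of Dishevelled, was called, at 1.35 in the Epcam pair (9.09%, against 9.48% of all genes). Of 10 nuclear genes, 2 were higher in the Epcam pair and 1 in the outer pair. Lef1, a nuclear partner of beta-catenin, had 48.8, 39.9 and 89.1 CPM and was higher in the Epcam pair at 1.15 (0.89 to 1.43), and Pygo1, a co-factor of beta-catenin, had 9.54, 6.02 and 23.6 CPM on few counts. Of the common target genes Ccnd1, Myc, Sp5 and Cd44, and of the secretion genes Porcn, Wls and Notum, 0 were called in any pair. Ccnd1 came nearest, with 100, 183 and 120 CPM and a genotype-pair ratio of 0.86.

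Markers of other cell types differed between the same libraries. Keratinocyte markers (5 of 5 with a region) summed to 222, 725 and 552 CPM in label order, lowest in the library labelled control Epcam+. Of the fibroblast and pericyte markers, whose sums are given with Dkk2, 8 of 8 had a region and all 8 lay below 0 in the outer pair, 5 of them at least 2-fold. In the genotype pair 5 lay below 0 and 3 above, with 3 called lower and 1, the pericyte gene Rgs5, called higher at 19.1, 44.0 and 12.7 CPM. Endothelial markers (5 of 5) summed to 177, 198 and 178 CPM, immune markers (4 of 6, with Lyz2 and Cd79a without a region) to 91.2, 79.0 and 75.5, and melanocyte markers (4 of 5, Tyr without a region) to 244, 232 and 165. The endothelial sum followed Pecam1, with 98.0, 142 and 99.1 CPM, and hid single-gene calls, which fell in different pairs. Kdr was lower in the genotype pair at -1.17, and Tie1 higher in the Epcam and outer pairs at 1.41 and 1.65. Of the immune markers, 3 lay below 0 and 1 above in the outer pair, with Itgam called lower at -1.12. The melanocyte sum followed Mitf, with 214, 182 and 100 CPM, while 3 of the 4 markers lay above 0 in the outer pair and Dct, with 12.2, 12.6 and 42.2 CPM, was called higher. The part of these differences in the member ratios was not tested.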

How the data were processed

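The data were ATAC-seq counts from 3 libraries, 1 per group. The table the authors deposited holds raw counts and yes or no peak calls (other values) for 95842 regions, in columns named by the sample titles. The submitters' processing notes list mm10 (GRCm38) as the build, and the tools MACS2 2.1.0.20151222, Bowtie2 2.2.6, Picard and SAMtools without saying what each did. How the deposited counts were made and filtered, whether ends were shifted for Tn5, and the cut behind a peak call are stated by no label or header. The endings Epp and Epm of the titles were read as Epcam-positive and Epcam-negative.

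The 2 mitochondrial regions were left out. TMM effective library sizes came from edgeR 4.0.16 in R 4.3.3, with factors of 1.04, 0.959 and 1.00, and nuclear counts of 4335304, 3812880 and 5485317. Regions were assigned by their midpoint to the nearest RefSeq GRCm38.p6 protein-coding gene body within 50 kb, the shortest body where several held it. Region coordinates are printed as the deposited table gives them. Log2 ratios of gene sums used a prior count of 2 in edgeR's formula (Python 3.11.15, scipy 1.17.1). Intervals are 95% Clopper-Pearson for ratios and exact Poisson for levels. Intervals and the limit of 3 counts set for a count of 0 (0.665, 0.820 and 0.545 CPM) cover counting error only. That limit is a fixed setting, and the exact Poisson upper ends for Dkk1, with 0 counts, were 0.818, 1.01 and 0.671 CPM. PCR reads that carry no molecular identifier may repeat 1 molecule, so the intervals may be too narrow even for that error. Ratio intervals and calls were tested on simulated Poisson counts with planted changes larger than the size rule. The intervals assume such counts, so this checks the computation and not the spread between libraries.

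Every member called in a pair is named with its values, and of each its region with most counts and its region with the largest ratio. Pathway genes are named up to 2 per direction, list and pair. The members, gene lists and alternatives were chosen with earlier results of these data known. Of the alternatives, 11 were planned and 1, the promoter region alone, was added after seeing the data. RefSeq promoter windows were found for 28 of 41 members. Motifs within gene regions were not analysed here.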

Additional observations from a re-analysis of the deposited data

How the results depend on the processing

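Across 12 alternatives, 0 of the 24 called member ratios changed direction, 14 stayed at 2-fold or more wherever they could be tested and 10 fell under it in at least 1. The number of members higher in the genotype pair, 1, became 2 with regions within 10 kb, within 1 kb of gene ends, with peak-called regions only or with the median over regions, and 0 when a region counted for every overlapping gene or with promoter regions alone (the added alternative). Wnt7a joined Wnt5b within 10 kb and with peak-called regions. Near gene ends, where Wnt5b was not tested, the 2 were Fzd6 and Wnt7b, and with the median over regions Fzd8 and Fzd9. The number lower in the Epcam pair, 3, became 5 with the median over regions and 1 with promoter regions, and the number lower in the outer pair, 3, became 1 with promoter regions. The promoter alternative tests fewer members, and the cause of the other changes was not tested. Wnt5b in the genotype pair fell to 0.85 when regions counted for every overlapping gene, and with the median over regions, and in the Epcam pair to -0.03 at the promoter. Sfrp2 in the Epcam pair was 0.88 with the median over regions. Wnt4 in the outer pair was 0.88 with the median over regions and 0.86 with chromosome medians set to 0, and Wnt5a 0.69 within 10 kb, 0.95 and 0.74. Wnt2 in the outer pair was -0.72 near gene ends, and in the genotype pair -1.14. Wnt9b in the Epcam pair was 1.07 with the median over regions. The members' median ranged from 0.10 to 0.26, 0.13 to 0.47 and 0.21 to 0.51 in the genotype, Epcam and outer pairs. Total-count scaling moved the genotype-pair median of all genes from 0.05 to -0.07. No paired analysis was possible because each group has 1 library, and for the same reason no library could be left out. Depth limits Sfrp5, Wnt3, Sfrp4 and Wnt8b most, with 6, 20, 25 and 27 counts in their lowest library.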
